A study of Mus musculus with 6 samples.

Results

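RNA made from the light-strand promoter of mouse mitochondrial DNA was measured where it lies opposite heavy-strand genes, as antisense RNA. The measurements were base counts on the reverse strand of chrM (GRCm38) from position 1 up to the border of mt-Tp, leaving out 8 light-strand genes: mt-Tq, mt-Ta, mt-Tn, mt-Tc, mt-Ty, mt-Ts1, mt-Nd6 and mt-Te. This left 14354 of the 16299 reverse-strand positions of chrM, out of 32598 positions over both strands. The positions lie opposite 28 heavy-strand genes: 2 rRNA genes, 14 tRNA genes and 12 mRNA genes. The RNA came from pancreatic islets, the clusters of hormone-secreting cells in the pancreas. All mice had eaten a high-fat diet for 14 weeks. A group of 3 Mrpp3WT (wild-type) mice was compared with 3 Mrpp3N434S (mutant) mice, with 1 Illumina TruSeq small RNA library each. The labels give no further detail of the allele, and no untreated diet group was used here. The files analysed hold chrM positions only, so neither islet markers nor the nuclear Mrpp3 gene could be used to check the labels.

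Mitochondrial DNA is transcribed from both strands into long precursors. Transcription from the light-strand promoter starts in the control region and runs towards position 1. It yields 8 tRNAs and mt-Nd6 (a subunit of respiratory complex I), and the rest of that transcript is complementary to the heavy-strand genes and is normally short-lived. MRPP3 carries the nuclease activity of mitochondrial RNase P, which cuts precursors at the 5′ ends of tRNAs. ELAC2 cuts at their 3′ ends, and a CCA tail that the genome does not encode is then added. The factor MTERF1 binds inside mt-Tl1 and is known to stop light-strand transcription before it enters the rRNA genes.

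The light-strand RNA at the clearest ends of the antisense fragments is shown 5′ to 3′, from the reference base given beside each count. Those bases matched the GENCODE vM21 transcripts in 37 of 37 mitochondrial genes. In the first 3 sequences the capitals mark 10 bases of the neighbouring light-strand tRNA. In the fourth they mark the last 15 bases before a steep fall in depth, and in the fifth the bases from a steep rise onwards; the small letters beside them have lower depth. The first lies opposite the start of mt-Co1 directly before mt-Ty (chrM:5317-5437), and the second opposite the end of mt-Co1 directly after mt-Ts1 (chrM:6767-6879). The third lies opposite mt-Tw directly after mt-Ta (chrM:4968-5027), the fourth opposite mt-Nd5 (chrM:12909-12938) and the fifth opposite mt-Cytb (chrM:14238-14305). Mitochondrial genes have no introns, so the bases opposite heavy-strand genes are all exonic. Positions 5327 and 5017 lie between genes, and the last 3 bases of mt-Co1 overlap mt-Ts1 on the other strand.
before mt-Ty: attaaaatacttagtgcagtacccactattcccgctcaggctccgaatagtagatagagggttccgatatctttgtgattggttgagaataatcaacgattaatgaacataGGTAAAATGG
after mt-Ts1: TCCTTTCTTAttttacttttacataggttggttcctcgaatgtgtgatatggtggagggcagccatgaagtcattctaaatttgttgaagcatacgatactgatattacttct
after mt-Ta: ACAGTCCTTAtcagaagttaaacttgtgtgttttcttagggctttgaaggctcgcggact
3′ end opposite mt-Nd5: AATTGCTTCAATAATtaggtcttttgagta
5′ end opposite mt-Cytb: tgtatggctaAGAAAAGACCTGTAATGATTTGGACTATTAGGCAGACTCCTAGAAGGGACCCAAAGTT

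The antisense RNA was scarce. Its summed depth (bases counted over all its positions) was 27972, 23665 and 18928 in Mrpp3WT replicates 1, 2 and 3, and 56264, 26636 and 26393 in Mrpp3N434S replicates 1 to 3. That is a mean depth of 1.32 to 1.95 bases per position in Mrpp3WT and 1.84 to 3.92 in Mrpp3N434S. Mrpp3N434S replicate 1 stood above the other 5 libraries, which lay close together. Counted on both strands, total depth ran from 3156761 to 4337052 in Mrpp3WT and from 5461367 to 10923311 in Mrpp3N434S, so the mutant libraries were all deeper. Covered positions made up 35.7% to 46.5% of the antisense positions in Mrpp3WT and 48.2% to 65.0% in Mrpp3N434S. Files of base counts do not give read numbers. Summing every rise in depth along the strand gives the fewest reads that could have produced the coverage, which came to 373 to 615 in Mrpp3WT and 524 to 1139 in Mrpp3N434S. The 120 isolated stretches with a depth of 1 had a median length of 50.5 nt (10th to 90th percentile 27 to 81 nt). The highest depth at any chrM position, summed over both strands, lay between 7997 and 8000 in all 3 mutant libraries and between 7436 and 7756 in the others. Whether the counting stopped at a fixed depth was not tested. The highest antisense depth was far lower, at 245, on the first base past mt-Tc. That does not show that antisense counts were unaffected where the sum of both strands was near its highest values.

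Antisense RNA opposite the rRNA genes was near the limit of detection. Opposite mt-Rnr1, the small rRNA (chrM:70-1024), mean depth was 0.284, 0.0963 and 0.0869 in Mrpp3WT replicates 1 to 3 and 0.221, 0.112 and 0.177 in Mrpp3N434S replicates. Opposite mt-Rnr2, the large rRNA, which begins at position 1094 and ends at the border of mt-Tl1, it was 0.167, 0.0221 and 0.0632 in Mrpp3WT and 0.199, 0.111 and 0.112 in Mrpp3N434S. The genotypes overlapped in both. The rRNA genes took up 17.7% of the antisense positions and gave 0.537% to 1.91% of the antisense depth. Antisense bases were 0.00188% to 0.0392% of the bases on both strands of these genes, where the rRNA itself reached mean depths of 505 to 3838. Opposite mt-Tv (valine tRNA, chrM:1025-1093), which lies between them, all 6 libraries had 0 antisense bases. A floor of 3 counts allows an antisense share of up to 0.195% to 0.409% there, for counting error only. Opposite mt-Tf (phenylalanine tRNA), at the very end of the transcript, 5 libraries had 0 and Mrpp3N434S replicate 1 had 0.485.

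The rRNA genes lie beyond mt-Tl1 (leucine tRNA, chrM:2676-2750), the gene that holds the MTERF1 site. Antisense depth opposite mt-Tl1 was 0.587 in Mrpp3WT replicate 1 and 0.787 in Mrpp3N434S replicate 1, and 0 in the other 4 libraries. Opposite mt-Nd1 (complex I subunit, chrM:2751-3707), which transcription reaches just before, it was 0.942, 0.996 and 1.0 in Mrpp3WT and 2.46, 1.92 and 1.13 in Mrpp3N434S. Depth was thus lower in every library from mt-Tl1 onwards than opposite mt-Nd1. Low depth was not limited to these genes: opposite mt-Tm, which transcription passes before mt-Nd1, it was 0 to 1.38. The part of MTERF1 in the drop was not tested. On the scale log2(mean depth + 1), the rRNA genes lay below the 12 mRNA genes by 1.40 ± 0.126 in Mrpp3WT and 1.77 ± 0.425 in Mrpp3N434S (SD, n = 3). Mean depth opposite the rRNA genes together was 0.0501 to 0.211, well below the added 1, so this scale understates the gap. The value mainly follows the raw depth opposite the mRNA genes. That depth was 1.56 to 2.26 in Mrpp3WT and 2.23 to 4.80 in Mrpp3N434S, and the part of library depth in it was not tested. The difference of -0.38 between genotypes had an exact two-sided permutation p = 0.1, the smallest that 3 against 3 libraries can give. Without Mrpp3N434S replicate 1 it was -0.13. With median in place of mean depth it was -0.53 and the genotypes overlapped (exact permutation p = 0.6).

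The tRNA genes had the widest range. Over their 14 genes the mean antisense depth over 6 libraries ran from 0 to 9.98 with a median of 0.732, and the median antisense share of both strands was 1.64%. The 3 highest all adjoin or nearly adjoin a light-strand tRNA, but so do mt-Tm (methionine tRNA, beside mt-Tq), with 0 to 1.38, and mt-Tt (threonine tRNA, beside mt-Tp), with 0.0299 to 3.0. Opposite mt-Tw (tryptophan tRNA, chrM:4950-5016), directly after mt-Ta, depth was 15.6, 9.10 and 5.42 in Mrpp3WT and 19.0, 5.39 and 5.48 in Mrpp3N434S. Opposite mt-Td (aspartate tRNA, chrM:6942-7011), just before mt-Ts1, it was 8.0, 6.16 and 5.27 against 6.94, 4.10 and 4.29. Opposite mt-Ti (isoleucine tRNA, chrM:3706-3774), directly after mt-Tq, it was 5.98, 3.27 and 8.85 against 6.85, 7.91 and 2.30. The genotypes overlapped in all 3, and replicate 1 was the highest of its group for mt-Tw and mt-Td.

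For mt-Td and mt-Tw the antisense strand carried a large part of all bases, and their own tRNA had a depth of only 2.19 to 13.0 and 8.15 to 22.4. The antisense share was 54.2% ± 14.4 for mt-Td and 45.7% ± 10.3 for mt-Tw in Mrpp3WT, and 37.9% ± 13.2 and 33.0% ± 14.7 in Mrpp3N434S (SD, n = 3). For mt-Th (histidine tRNA), mt-Tm and mt-Ts2 (serine tRNA), whose own depth was 621 to 2735, the antisense share stayed between 0% and 0.321%. Small RNA libraries can miss whole tRNAs with many modified bases, so these shares compare what was sequenced on each strand and not the RNA in the cell.

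The mRNA genes gave most of the antisense depth, and mt-Nd5 the largest share of any 1 gene. They took up 75.4% of the positions and gave 87.6% to 92.2% of the depth, with gene means over 6 libraries from 0.214 to 6.92 (median 1.44). Opposite mt-Nd5 (complex I subunit, chrM:11742-13565), which begins right after mt-Nd6 on the light strand, depth was 5.21, 4.36 and 3.84 in Mrpp3WT and 15.6, 6.04 and 6.49 in Mrpp3N434S. Every mutant library was above every wild-type library on this raw scale, which follows total depth too. The mt-Nd5 stretch made up 12.6% of the positions. It held 34.6% ± 1.86 of the antisense depth in Mrpp3WT and 45.2% ± 4.55 in Mrpp3N434S (SD, n = 3).

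Opposite mt-Co1 (complex IV subunit, chrM:5328-6872), second among mRNA genes by the mean over 6 libraries, depth was 4.06, 4.24 and 2.79 in Mrpp3WT and 3.41, 3.20 and 2.27 in Mrpp3N434S. Opposite mt-Nd3 and mt-Nd4l, neighbouring complex I subunits, it was 3.39, 1.68 and 2.08 against 5.62, 1.76 and 3.64, and 3.22, 2.23 and 1.18 against 6.65, 2.40 and 2.43. For these 3 genes the genotypes overlapped. Among mutants alone, the means of mt-Nd4l (3.83) and mt-Nd3 (3.67) were above that of mt-Co1 (2.96). By the mean over 6 libraries the lowest mRNA genes were mt-Atp8 and mt-Atp6, subunits of ATP synthase, with 0 to 0.441 and 0.301 to 0.868. Among wild types alone, mt-Nd2 (mean 0.373) was below mt-Atp6 (0.410). Antisense depth was not higher where sense depth was higher: Spearman's rho across the 28 genes was -0.35 to -0.45 by library, and across the 12 mRNA genes -0.27 to 0.04. Genes within a library share its depth and are not independent replicates, so no p-value is given.

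**Figure D1:**
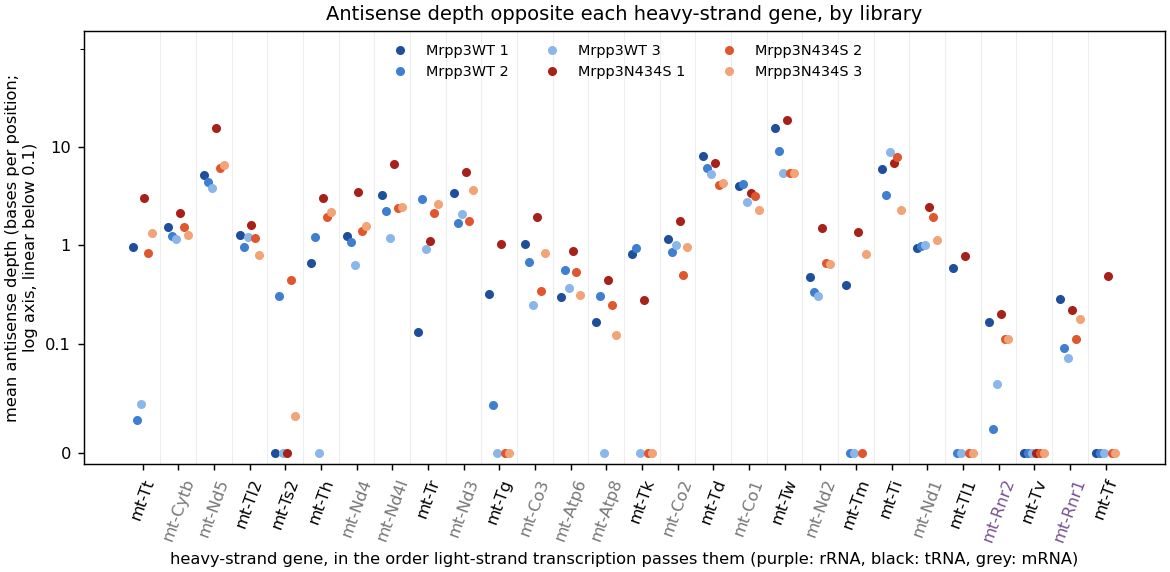
Mean antisense depth (bases per position, log axis that is linear below 0.1) opposite each of the 28 heavy-strand genes, in the order in which light-strand transcription passes them, with 1 point per library. Points opposite mt-Nd5, mt-Td, mt-Tw and mt-Ti lie between 2.30 and 19.0, and those opposite mt-Rnr1 and mt-Rnr2 at or below 0.284.

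Along the light-strand transcript, antisense depth fell with distance, but in steps and peaks rather than evenly. Distance was counted from the mt-Tp border in the direction of transcription, and depth was averaged over 31 windows of 500 nt. The windows centred at 2.25 kb, opposite mt-Nd5, were the highest in every library, at 10.1 to 12.6 in Mrpp3WT and 14.9 to 34.7 in Mrpp3N434S. The first window, opposite mt-Tt and the end of mt-Cytb and closest to the promoter, held only 0.004 to 1.14. At 7.25 and 7.75 kb, opposite mt-Atp6, mt-Atp8 and mt-Co2, the windows held only 0 to 1.06. It rose again at 10.2 kb, around the group of 4 light-strand tRNAs from mt-Ty to mt-Ta, to 5.13 to 14.6. From 13.2 kb on, opposite the rRNA genes, every window held 0 to 0.444.

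The slope of log2(mean depth + 1) on distance was -0.0850 ± 0.0112 per kb in Mrpp3WT and -0.127 ± 0.0294 in Mrpp3N434S (SD, n = 3). The 3 mutant slopes were -0.160, -0.102 and -0.120, and the wild-type slopes -0.0958, -0.0858 and -0.0735. All mutant slopes were steeper than all wild-type slopes, with an exact two-sided permutation p = 0.1, the smallest possible (0.1 also after Benjamini-Hochberg adjustment over the 3 per-library measures tested). Leaving out the rRNA genes gave -0.0355 ± 0.0117 and -0.0792 ± 0.0250. Mrpp3N434S replicate 1, the deepest library, had the steepest slope, and without it the difference between genotypes fell from -0.0421 to -0.0259 per kb. The part of library depth in the slope was not tested. Spearman's rho between window depth and distance was -0.48 to -0.63.

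**Figure D2:**
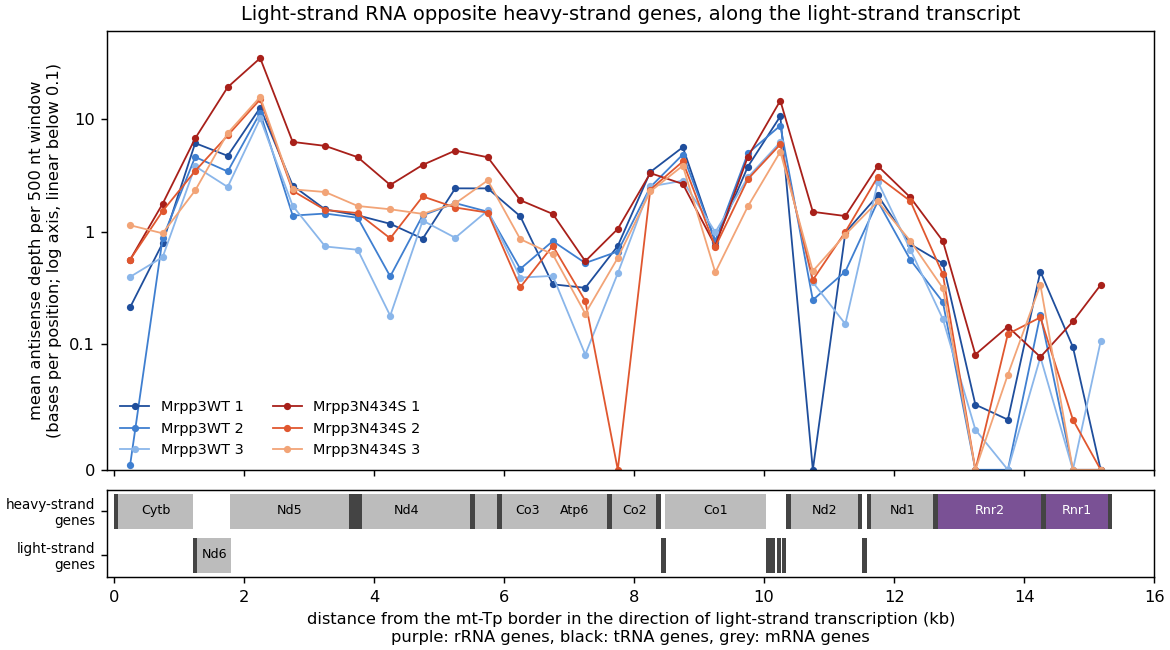
Mean antisense depth per 500 nt window (bases per position, log axis that is linear below 0.1) against distance along the light-strand transcript in kb, 1 line per library, above a map of the heavy-strand and light-strand genes. The highest window, opposite mt-Nd5 at 2.25 kb, holds 10.1 to 34.7, and the windows opposite the rRNA genes hold at most 0.444.

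The antisense RNA was concentrated in a few short regions. The 20 highest local peaks fell into 13 regions that together covered 6.51% of the positions and held 55.4% to 56.1% of the antisense depth in Mrpp3WT and 45.4% to 52.9% in Mrpp3N434S. A peak was the highest remaining position at least 50 nt from a higher one, on depth scaled to the reverse strand and averaged over libraries. Its region was the run around it with at least 50% of its height. Of the 13 regions, 8 adjoined a light-strand gene or began 1 nt from it. Positions within 120 nt of a light-strand gene made up 7.77% of the positions and held 34.6% ± 0.78 of the depth in Mrpp3WT and 23.2% ± 4.99 in Mrpp3N434S.

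The largest fragment cluster lay opposite mt-Nd5, 532 nt past the end of mt-Nd6, at chrM:12924-13019. Its mean depth was 47.3, 37.2 and 36.2 in Mrpp3WT and 74.2, 42.7 and 34.4 in Mrpp3N434S, and it held 16.6% ± 1.64 and 13.5% ± 1.63 of all antisense depth. The genotypes overlapped in depth. Its 3′ end was at position 12924 in 6 of 6 libraries, where depth fell from one base to the next by 30.4% to 66.7% of the top. That is the border between capitals and small letters in the mt-Nd5 sequence above. The 5′ side rose gradually, with the steepest step only 6.52% to 18.0% of the top. Sequenced antisense bases here exceeded sequenced mt-Nd5 sense bases in every library, since the sense depth was 1.24 to 3.16 in Mrpp3WT and 6.48 to 14.3 in Mrpp3N434S. These are depths in small RNA libraries and do not compare the amounts of antisense RNA and mt-Nd5 mRNA in the cell. Compared with mt-Nd6, upstream on the same transcript, with 13.4, 13.3 and 12.2 in Mrpp3WT and 33.5, 14.3 and 19.5 in Mrpp3N434S, the region was 3.10 ± 0.374 times as deep in Mrpp3WT and 2.32 ± 0.614 times in Mrpp3N434S.

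Between mt-Nd6 and this cluster lay 2 broader regions. At chrM:13145-13309 depth was 5.17, 7.63 and 4.22 in Mrpp3WT and 38.1, 13.8 and 19.4 in Mrpp3N434S. At chrM:13416-13551, which adjoins mt-Nd6, it was 5.86, 4.31 and 3.38 against 20.1, 8.85 and 8.82. In both regions every mutant library was above every wild-type library. As a share of all antisense depth, which takes library depth out, the first went from 4.02% ± 1.17 to 10.6% ± 1.84 and the second from 2.58% ± 0.232 to 4.64% ± 0.187. As a ratio to mt-Nd6 they went from 0.435 ± 0.122 to 1.03 ± 0.0937 and from 0.346 ± 0.0813 to 0.556 ± 0.0901. No step from one base to the next at their ends was above 20% of the top.

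Directly before mt-Ty, opposite the start of mt-Co1, a 111 nt region at chrM:5327-5437 ran up to the 5′ end of the tRNA. Its depth was 21.4, 28.5 and 18.9 in Mrpp3WT and 28.7, 17.2 and 4.61 in Mrpp3N434S, with Mrpp3N434S replicate 3 far below the others. Its 5′ end was at position 5437 in 5 of 6 libraries. The steepest fall at its 3′ side was at position 5329 in 4 libraries and at 5327 or 5328 in the other two. At the fourth base before mt-Ty the depth was 27, 33 and 24 in Mrpp3WT and 39, 22 and 8 in Mrpp3N434S, and at the last base before it 17, 28 and 21 and 25, 16 and 6. At the first base of mt-Ty it was 41, 22 and 28 and 47, 25 and 24. Depth was thus higher on the tRNA side of the border in 5 libraries and lower in Mrpp3WT replicate 2.

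Directly after mt-Ts1, opposite the other end of mt-Co1, chrM:6767-6868 had a depth of 27.7, 21.0 and 15.8 in Mrpp3WT and 11.2, 23.4 and 20.2 in Mrpp3N434S. Mrpp3N434S replicate 1, the deepest library, had the lowest value. The 5′ end was at 6868 in 4 libraries and 6869 in the other 2, the second and first base past mt-Ts1, with a step of 46.4% to 66.7% of the top. The last base of mt-Ts1 itself had only 0 to 8, and position 6868 had 11 to 29. Away from both tRNA borders, the rest of mt-Co1 gave only 1.69% to 5.30% of the antisense depth. Directly after mt-Ta, opposite mt-Tw, chrM:4968-5017 had 18.8, 11.7 and 5.98 against 20.4, 6.26 and 6.84, with the 5′ end at position 5017, the first base past mt-Ta, in 5 of 6 libraries. The last base of mt-Ta had 4 to 14 and position 5017 had 9 to 23.

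A short region opposite mt-Cytb (complex III subunit), at chrM:14238-14295, ended 98 nt upstream of mt-Te. Depth was 17.0, 13.5 and 10.1 in Mrpp3WT and 15.2, 7.16 and 7.57 in Mrpp3N434S. The 5′ end was at position 14295 in 6 of 6 libraries, with a step of 33.3% to 88.9% of the top. Its share of antisense depth was 3.31% ± 0.209 in Mrpp3WT and 1.60% ± 0.0591 in Mrpp3N434S, with no overlap. Weaker regions lay opposite mt-Nd3 (chrM:9551-9622, 3.99 to 15.9), mt-Nd4l (chrM:10075-10153, 4.18 to 16.3) and mt-Ti (chrM:3710-3771, 2.39 to 9.23).

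The highest single position was 5191, the first base past the 3′ end of mt-Tc, with 117, 81 and 48 in Mrpp3WT and 245, 91 and 159 in Mrpp3N434S. The first base past mt-Tn, 5088, had 61, 53 and 39 against 60, 30 and 29. These positions and 5258 to 5259, between mt-Ty and mt-Tc, lie in gaps of light-strand tRNA genes with no heavy-strand gene opposite. Depth fell from 58 to 266 at the last base of mt-Tc to 48 to 245 at 5191 and 9 to 45 at 5190, the second base past it. The light-strand base at 5191 is C, so the first base of a CCA tail on mt-Tc would match the reference there. Such a base would not show as a mismatch. The part of tailed mt-Tc in the depth at 5191 was not tested.

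**Figure D3:**
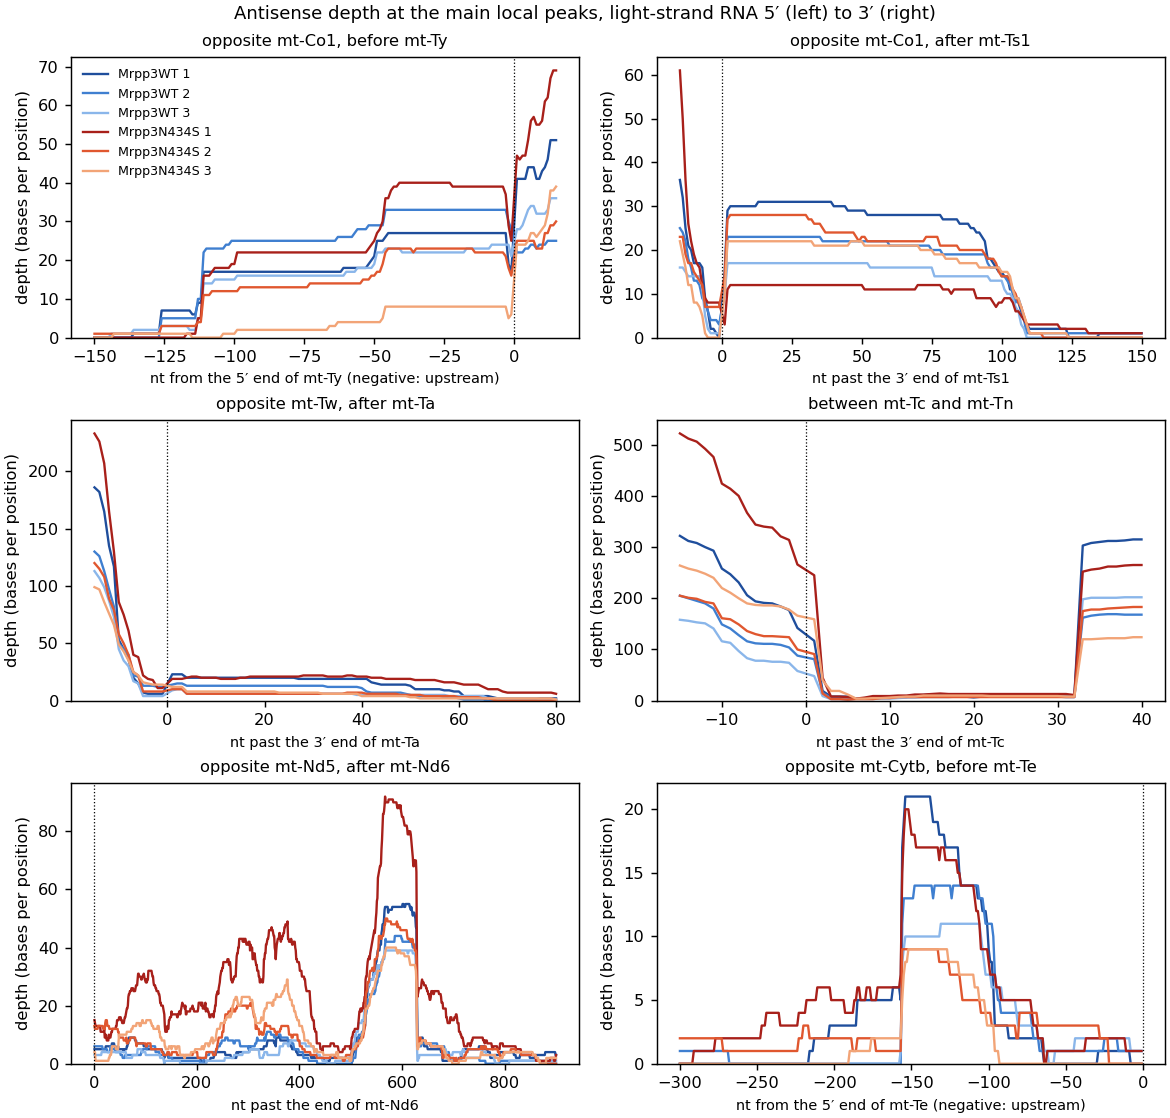
Antisense depth (bases per position) around 6 of the highest local peaks, by distance in nt from the border of the neighbouring light-strand gene, with light-strand RNA running 5′ to 3′ from left to right and 1 line per library. Depth opposite mt-Nd5 falls at 1 position in all 6 libraries, by 30.4% to 66.7% of the top, and depth opposite mt-Cytb rises at 1 position in all 6, by 33.3% to 88.9%.

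Genotype differences were tested first on the total. Antisense RNA made up 0.643% ± 0.0417 of all chrM depth in Mrpp3WT and 0.483% ± 0.0352 in Mrpp3N434S (SD, n = 3). The wild-type values were 0.645%, 0.683% and 0.600% and the mutant values 0.515%, 0.488% and 0.445%, with no overlap (exact two-sided permutation p = 0.1, the smallest possible). The direction turned with the denominator. As a share of reverse-strand depth it was 5.10% ± 0.545 in Mrpp3WT and 6.96% ± 1.83 in Mrpp3N434S (exact permutation p = 0.2), and as a share of depth outside rRNA genes 1.98% ± 0.251 and 2.23% ± 0.342 (exact permutation p = 0.4). The rRNA genes had a mean depth of 844 to 1103 in Mrpp3WT and 1672 to 3452 in Mrpp3N434S. Their part in the first comparison was not tested beyond leaving them out of the total. Without the regions of the 20 peaks, the share of all depth was 0.284% ± 0.0192 in Mrpp3WT and 0.250% ± 0.0272 in Mrpp3N434S. There the genotypes overlapped (exact permutation p = 0.2).

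No antisense gene reached the mean depth of 10 needed for the main per-gene test, so none of the 28 entered it. That test covered 42 features on both strands and called 9 of them (21.4%) at an adjusted p of 0.05 by edgeR's quasi-likelihood test. With minimum read numbers in place of mean depth, 59 features could be tested and 6 were called (10.2%). Of these, 12 were antisense genes and 0 were called. DESeq2 called 9 of the 59 features and 0 antisense genes, with 2 antisense genes at an unadjusted p under 0.05. It gave no adjusted p for 10 of the 12, so its 0 says little about them. By edgeR, 3 of the 12 had an unadjusted p under 0.05. The 3 were mt-Co1 (log2 change -0.61, edgeR adjusted p = 0.0989), mt-Nd5 (0.54, edgeR adjusted p = 0.0989) and mt-Nd2 (0.92, edgeR adjusted p = 0.0989). The wild-type read numbers were 76, 74 and 51 for mt-Co1, 125, 107 and 88 for mt-Nd5 and 11, 6 and 6 for mt-Nd2. The mutant read numbers were 72, 64 and 45, 374, 152 and 160, and 38, 14 and 11. For mt-Nd2 the wild-type numbers averaged under 10, so it reached the required mean of 10 only through the mutant libraries. Scaled to library totals, 23 of 59 features were called (39.0%) and 4 of the 12 antisense genes, all lower. There mt-Co1 passed (-1.11, edgeR adjusted p = 0.00529) and mt-Nd5 was at 0.03. Scaled to the reverse strand, 17 were called (28.8%) and 3 of the 12, all higher. There mt-Nd5 (0.91, edgeR adjusted p = 0.0104) and mt-Nd2 (1.28, edgeR adjusted p = 0.0386) passed and mt-Co1 was at -0.28. Scaled to mt-Nd6, 6 were called (10.2%) and 1 of the 12, mt-Co1 (-0.83, edgeR adjusted p = 0.0373). Without Mrpp3N434S replicate 2 mt-Co1 passed (edgeR adjusted p = 0.0289), and without Mrpp3N434S replicate 3 mt-Nd5 and mt-Nd2 passed (edgeR adjusted p = 0.0380 for both). The median over the 12 was 0.16 beside 0.09 over all 59 features.

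The ratio of antisense to sense RNA within each library needs no scaling between libraries. With read numbers, 20 genes could be tested and 5 were called (25.0%), all lower in Mrpp3N434S. Among the 12 heavy-strand genes 1 was called: for mt-Co1 the ratio fell by 1.20 on the log2 scale (SE 0.38, edgeR adjusted p = 0.0137). The mt-Co1 antisense share of mean depth was 8.50% ± 1.02 in Mrpp3WT and 3.14% ± 1.37 in Mrpp3N434S. Sense depth of mt-Co1 was higher in every mutant library, with 50.1, 40.2 and 30.1 in Mrpp3WT and 187, 67.4 and 71.0 in Mrpp3N434S. Its antisense depth overlapped, with 4.06, 4.24 and 2.79 against 3.41, 3.20 and 2.27. These are raw depths, and the mutant libraries were all deeper. How much of the fall in the ratio came from each strand was not tested. On mean depth of at least 1, where edgeR called 0 of 24 genes (0.0%) and 1 heavy-strand gene was at an unadjusted p under 0.05, the mt-Co1 ratio did not pass (log2 change -1.82, edgeR adjusted p = 0.0555).

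Short windows let more of the antisense RNA be tested. In 50 nt windows over both strands of chrM, 293 reached a mean depth of 10 and 71 were called (24.2%), 12 higher (4.1%) and 59 lower (20.1%) in Mrpp3N434S, by edgeR with TMM scaling, which assumes that most windows do not change. Of 16 antisense windows tested, 12 were called, 1 higher and 11 lower. Of these 16, 7 lay opposite mt-Nd5, 4 opposite mt-Co1, 3 between genes and 1 each opposite mt-Tw and mt-Cytb. Neighbouring windows share reads and are not independent. Leaving out Mrpp3WT replicate 1, 2 or 3 gave 7, 6 and 7 called windows, and DESeq2 called 7 of the 16, all lower, and 71 of all 293 (again 24.2%), 31 higher and 40 lower. Scaled to the light-strand genes, 6 of the 16 were called and 203 of all windows (69.3%), 192 higher and 11 lower, and windows of 100 nt gave 6 of 9 and 39 of 156 (25.0%).

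The window opposite mt-Cytb, at chrM:14240-14289, was called lower, also by DESeq2 and without each library in turn. Raw depth was 17.0, 13.7 and 10.3 in Mrpp3WT and 15.1, 7.06 and 7.74 in Mrpp3N434S, where it overlapped. Divided by the TMM scaling factor it was 23.3, 24.8 and 21.0 against 6.94, 7.16 and 7.24, with no overlap. The log2 change was -1.68 (SE 0.28, edgeR adjusted p = 0.000822), and it was -1.23 when scaled to mt-Nd6 (edgeR adjusted p = 0.0122) and -0.58 when scaled to the reverse strand (edgeR adjusted p = 0.188).

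At the tRNA borders the windows were also lower. Before mt-Ty, chrM:5327-5376 had 26.4, 32.5 and 22.5 against 37.8, 22.0 and 7.60, with a log2 change of -1.52 (SE 0.33, edgeR adjusted p = 0.00521), and the window upstream of it -1.85 (SE 0.40, edgeR adjusted p = 0.00529). The second was lost without Mrpp3WT replicate 2. After mt-Ts1, chrM:6777-6826 had 27.5, 20.6 and 15.5 against 11.2, 21.8 and 19.8, with -1.44 (SE 0.42, edgeR adjusted p = 0.0238), and the window nearest mt-Ts1 -1.38. Both missed the threshold by DESeq2 and without any one of the wild-type libraries (edgeR adjusted p = 0.0793 to 0.127), and without Mrpp3N434S replicate 1 their changes were -0.81 and -0.75. After mt-Ta, chrM:4993-5017 had 20.4, 13.2 and 6.44 against 20.2, 6.48 and 8.36, with -1.44 (SE 0.34, edgeR adjusted p = 0.00853), but not without Mrpp3WT replicate 1 or 2. The gaps after mt-Tn (chrM:5087-5088) and mt-Ty (chrM:5258-5259) had -1.64 and -2.10 (edgeR adjusted p = 0.000185 and 0.000910). The gap of 32 nt between mt-Tc and mt-Tn, where light-strand DNA replication starts, did not pass (-0.73, edgeR adjusted p = 0.107), except without Mrpp3N434S replicate 3.

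Set against the tRNA beside them in the same library, these border regions overlapped between genotypes. The ratio of the region before mt-Ty to mt-Ty was 0.373, 0.990 and 0.488 in Mrpp3WT and 0.373, 0.555 and 0.0965 in Mrpp3N434S (difference -0.276, exact permutation p = 0.5). The ratio of the region after mt-Ts1 to mt-Ts1 was 0.275, 0.360 and 0.332 against 0.0713, 0.416 and 0.343 (difference -0.0453, exact permutation p = 0.9), and without Mrpp3N434S replicate 1 its difference was 0.0575. The ratio after mt-Ta was 0.0846 ± 0.0259 and 0.0728 ± 0.0183 (SD, n = 3; exact permutation p = 0.6). The mt-Cytb region relative to mt-Te, the next light-strand tRNA, did not overlap, with 0.0293, 0.0447 and 0.0319 against 0.0223, 0.0203 and 0.0224 (exact permutation p = 0.1). Over the 5 ratios compared, which were chosen after their values were seen, the smallest adjusted p was 0.25.

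Opposite mt-Nd5, neighbouring stretches had changes of opposite sign with TMM scaling and when scaled to library totals, mt-Nd6 or the antisense total. Scaled to mt-Nd6 or the antisense total, no window of the 3′ end cluster was called. The signs were the same when scaled to the reverse strand or to the light-strand genes. At the 3′ end cluster, chrM:12939-12988 had 53.8, 42.2 and 38.8 in Mrpp3WT and 87.5, 47.2 and 38.7 in Mrpp3N434S, with a log2 change of -0.88 (SE 0.20, edgeR adjusted p = 0.00801). The windows on either side had -0.71 and -0.95 (edgeR adjusted p = 0.0495 and 0.0138). The first of these was lost without any one library except Mrpp3N434S replicate 1, and the second without Mrpp3WT replicate 2 or 3. Nearer to mt-Nd6, chrM:13239-13288 had 3.70, 6.74 and 3.50 against 37.9, 19.3 and 21.0, with 1.12 (SE 0.34, edgeR adjusted p = 0.0275), the only antisense window called higher. It was not called by DESeq2 or without Mrpp3WT replicate 1 or 3 or Mrpp3N434S replicate 2. The other 3 windows there were at 0.61, 0.61 and 0.51 and did not pass. All 4 had a wild-type mean below the filter of 10 and entered the test only through the mutant libraries. The fifth ratio, of the nearer region (chrM:13145-13309) to the cluster at chrM:12924-13019, is free of scaling between libraries. It was 0.109, 0.205 and 0.117 in Mrpp3WT and 0.514, 0.323 and 0.563 in Mrpp3N434S, with no overlap (exact two-sided permutation p = 0.1, the smallest possible; adjusted p = 0.25). Leaving out 1 library at a time kept the difference between 0.275 and 0.395.

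Scaling moved the level of all windows, and with it the directions. The median log2 change over the 293 windows was -0.07 with TMM, 0.14 by library totals, 0.38 by mt-Nd6, 0.54 by the antisense total and 1.03 by the reverse-strand total. By library totals 66 windows were called (22.5%), 25 higher and 41 lower, and 11 of the 16, 1 higher and 10 lower. By the reverse-strand total 197 windows were called (67.2%), 188 of them higher (64.2%) and 9 lower (3.07%), and 5 of the 16 antisense windows, 4 higher and 1 lower. Scaled to mt-Nd6, 82 windows were called (28.0%), 59 higher (20.1%) and 23 lower (7.85%), and 11 of the 16, 3 higher and 8 lower. Scaled to the antisense total, 127 were called (43.3%), 108 higher (36.9%) and 19 lower (6.48%), and 9 of the 16, 4 higher and 5 lower. Of the 11 windows called lower, 8 stayed negative under all 5 scalings, and the 3 of the mt-Nd5 cluster turned positive when scaled to the reverse strand. The 4 nearer mt-Nd5 windows were positive under all 5. Their wild-type means were only 4.65 to 6.50, so they reached the mean depth of 10 only through the mutant libraries. Their shared sign is thus partly fixed by that filter and is no separate support. The windows chrM:14240-14289 and chrM:5258-5259 had mutant means of 9.95 and 9.83, just below the filter. The windows called under all 5 scalings were chrM:13239-13288, higher, and chrM:5258-5259, lower. The second is a gap of 2 nt with no heavy-strand gene opposite. The first was not called by DESeq2 (adjusted p = 0.0569) and, with TMM, was called in only 3 of the fits that left out 1 library.

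**Figure D4:**
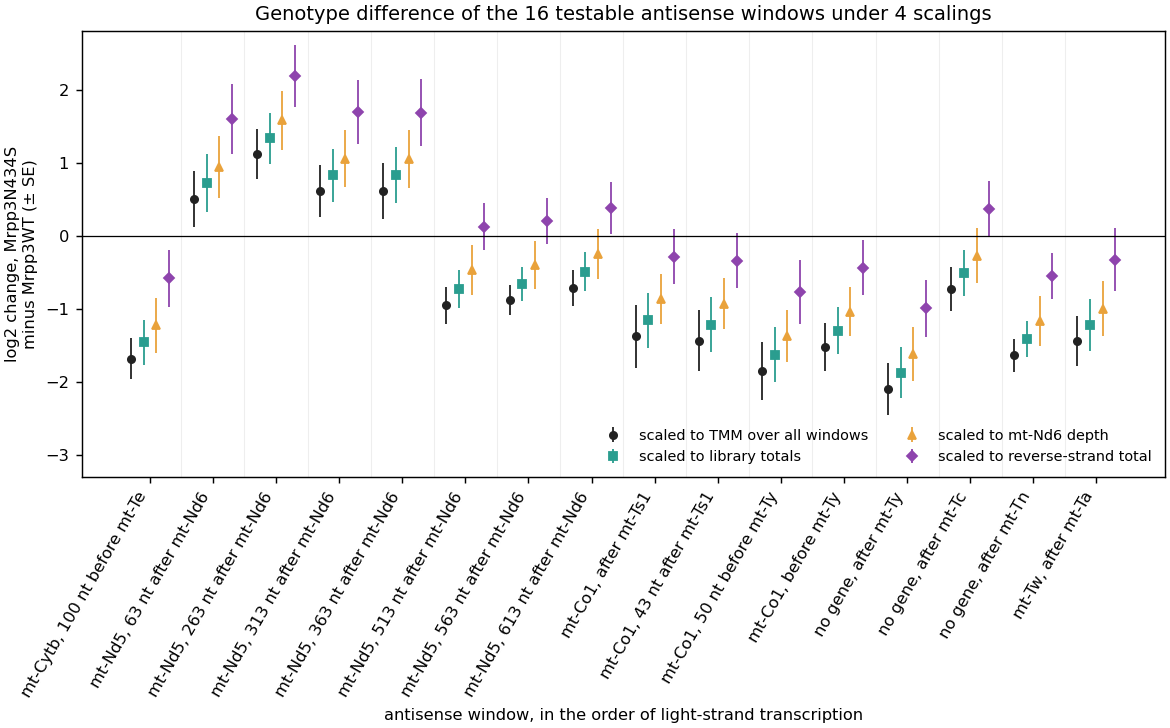
Log2 change in depth (mutant minus wild type, with its SE) of the 16 tested antisense windows, under 4 scalings of the libraries, in the order of light-strand transcription. The 4 windows 63 to 363 nt after mt-Nd6 lie above 0 under all 4, and the windows at mt-Cytb, mt-Co1 and mt-Tw lie below 0 under all 4. Those after mt-Nd6 reached the mean depth needed for the test only through the mutant libraries.

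Mismatches to the reference were rare in the antisense RNA, at 0.229% to 0.428% of its bases by library. No position had a depth of 50 in every library, so none met the planned minimum, and 97 had a depth of 20. Pooled over libraries, positions with a depth of at least 60 and a mismatch of at least 5% were 5017 and 5190 (chosen after their values were seen). Tokens give the reference base on the light strand, the chrM position and the base read. T5017C, at the first base past mt-Ta, was read in 19 of 87 bases (21.8%, exact Clopper-Pearson 95% interval 13.7% to 32.0%). T5190C, at the second base past mt-Tc, was read in 34 of 142 bases (23.9%, interval 17.2% to 31.8%). Both occurred in all 6 libraries, and the intervals cover counting error only. Each turns the genomic base into a C as in the CCA tail added to tRNA 3′ ends; the part of tailed tRNA in the depth at these borders was not tested.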

How the data were processed

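Small RNA libraries from islets of 3 Mrpp3WT and 3 Mrpp3N434S mice were made by the Illumina Tru-Seq protocol, per the labels. The submitters' processing notes list STAR, Trim Galore, cutadapt and FastQC and the GRCm38.p6 build. How multimapping reads were treated, and which tool counted bases, is not given in the sources used here. Per the file headers, the authors deposited counts of each base per chrM position and strand. Positions absent from a file were taken as depth 0. Depth was summed over bases and averaged per gene (GENCODE vM21) or per 50 nt window, and rounded means were tested with edgeR 4.0.16 (TMM, quasi-likelihood, Benjamini-Hochberg over all features of both strands with a mean of at least 10). DESeq2 1.42.0 and limma 3.58.1 were alternatives, with other scalings, filters and each library left out. For single values per library, exact two-sided permutation tests ranked the difference of group means among all regroupings of the 6 libraries. Full separation of 3 against 3 gives p = 0.1 in this permutation test, whatever the spread. On simulated data, log2 changes of 1 and 2 were recovered for 47.5% and 93.8% of changed features per gene (42 features), and for 76.0% and 98.2% per window (293 windows). Unchanged features were called at 0.588% and 2.65% per gene and 0.791% and 0.711% per window. The 42 features held 0 antisense genes, so the per-gene rates do not cover them. Windows were simulated as independent, while real neighbouring windows share reads.

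The antisense positions and the gene lists were chosen with earlier results of these data known. Named were the 8 genes of highest antisense depth, both rRNA genes, the 10 highest peaks, up to 10 called windows and mismatch positions. The other genes and windows, the read-number tests, the scalings to mt-Nd6 and to the antisense total, and the within-library ratios were added after the data were seen. Library totals were 3156761 to 10923311 bases. For every pair of libraries, rounded mean depths per feature differed by more than sampling noise of counts (chi-square per degree of freedom at least 4.53). No library was thus treated as a copy of another. This cannot show whether the libraries came from separate mice.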

Additional observations from a re-analysis of the deposited data

How the results depend on the processing

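The antisense share of depth turned direction with the denominator: the difference between genotypes (mutant minus wild type, in percentage points) was -0.160 of all depth, 1.86 of reverse-strand depth, 0.248 without rRNA genes and 0.0698 without rRNA and tRNA genes, the last added after seeing the data. Of all depth, it was -0.0338 without the regions of the 20 peaks, where the genotypes overlapped (exact permutation p = 0.2). Without positions within 30 nt of light-strand genes it was -0.119 (exact permutation p = 0.1). Leaving out 1 library at a time, with all positions kept, gave -0.181 to -0.140 of all depth. On the same basis the slope difference ranged from -0.0546 to -0.0259 per kb and the rRNA difference from -0.51 to -0.13. On median depth the rRNA difference was -0.53 and the genotypes overlapped (exact permutation p = 0.6). The 12 called antisense windows became 5 when scaled to the reverse strand, 6 when scaled to light-strand genes, 6 (of 9) in 100 nt windows, 7 by DESeq2, 11 with the replicate number as a block, and 6 to 12 with 1 library left out. Same-numbered libraries did not deviate together (correlations of 0.046 to 0.078 over windows and -0.26 to 0.028 over genes), and the main tests did not pair them. These correlations cannot show whether the mice were paired in the experiment. With the block, mt-Co1 antisense read number passed (log2 change -0.61, edgeR adjusted p = 0.0245). The windows at 5160-5191, 12889-12938, 12939-12988 and 12989-13038 turned positive when scaled to the reverse strand (0.37, 0.38, 0.20 and 0.12) and to light-strand genes (0.27, 0.26, 0.098 and 0.0305); the cause was not tested. No antisense gene entered the per-gene test at a mean depth of 10. At a mean depth of at least 1, 15 entered and edgeR called 0, with 0 at an unadjusted p under 0.05. The ratio test called 1 by read number. Low depth limits all per-gene tests.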
